A study of Mus musculus with 21 samples.

Results

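Border macrophage marker genes are genes by which macrophages at the borders of the brain are commonly recognised. The list held 10 of them: Mrc1, Cd163, F13a1, Cbr2, Folr2, Clec10a, Mgl2, Lyve1, Cd209f and Cd209g. They were taken by gene name from a count table of 57180 genes, in which each name had 1 row. RNA-seq had been made from cells sorted from mouse brain, in 21 libraries labelled as biological replicates. The labels do not say whether replicates came from separate animals, so p-values measure the spread between libraries. The study asked what replacing microglia in newborn mice does to seizures in the adult.

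MLC were transplanted monocytes that had taken the place of microglia, with the genotype Osb-GFP. MG were transplanted microglia, also Osb-GFP. NoTx were microglia of mice without a transplant, with the genotype CX3CR1-CreER+/-; CSF1R fl/fl, so genotype and transplantation cannot be told apart in any comparison with NoTx. Brains were taken 5 days after kainic acid, which activates glutamate receptors and induces seizures (6 MLC, 4 MG and 3 NoTx libraries), or after saline (3 MLC, 3 MG and 2 NoTx libraries). The label batch was 1 for every seizure library and 2 for every saline library, so the effects of batch and treatment cannot be told apart. MLC seizure replicates 3 and 6 carried the code 11b in their library names, each beside a code that replicate 2 or replicate 4 also had, and they entered as separate replicates.

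Macrophages live not only in the brain tissue, as microglia, but also in the meninges, around blood vessels and in the choroid plexus. These border macrophages face blood and cerebrospinal fluid, and they carry scavenger receptors and lectins with which they take up proteins, sugars and debris. Microglia of the healthy brain tissue express most of these genes weakly or not at all. Cells that come from monocytes can acquire some of them when they settle in a tissue.

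Deposited counts summed to between 6.57 and 73.8 M per seizure library and between 36.5 and 50.3 M per saline library. A floor of 3 counts corresponded to between 0.0456 and 0.417 CPM (counts per M counts of the TMM-scaled library) in a seizure library and between 0.0565 and 0.0833 CPM in a saline library, for counting error alone. Microglial markers were read in all libraries: the 9 genes found of a list headed by P2ry12, the purine receptor that marks microglia, summed to 12807 to 25552 CPM in MLC, 49362 to 81366 CPM in MG and 52979 to 83768 CPM in NoTx libraries. In bulk samples, fewer cells of a kind and less RNA per cell cannot be told apart.

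The markers fell into 3 sets by their levels. Mrc1 was at 10 CPM or more in 9 of 9 MLC libraries and was the only marker held by MLC in that sense, which asked for at least 7 of the 9. Lyve1, Cd209f and Cd209g reached 1 CPM in no library outside NoTx saline, and their highest values in the other 19 libraries were 0.0466, 0.151 and 0.167 CPM. The 6 others, Cd163, F13a1, Cbr2, Folr2, Clec10a and Mgl2, reached 1 CPM both in MLC and in NoTx saline libraries, and were low or patchy in MG. Of these, Cd163 was at 1 CPM or more in 9 of 9 MLC libraries, F13a1, Cbr2, Folr2 and Mgl2 in 6 of 9, and Clec10a in 4 of 9.

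**Figure D1:**
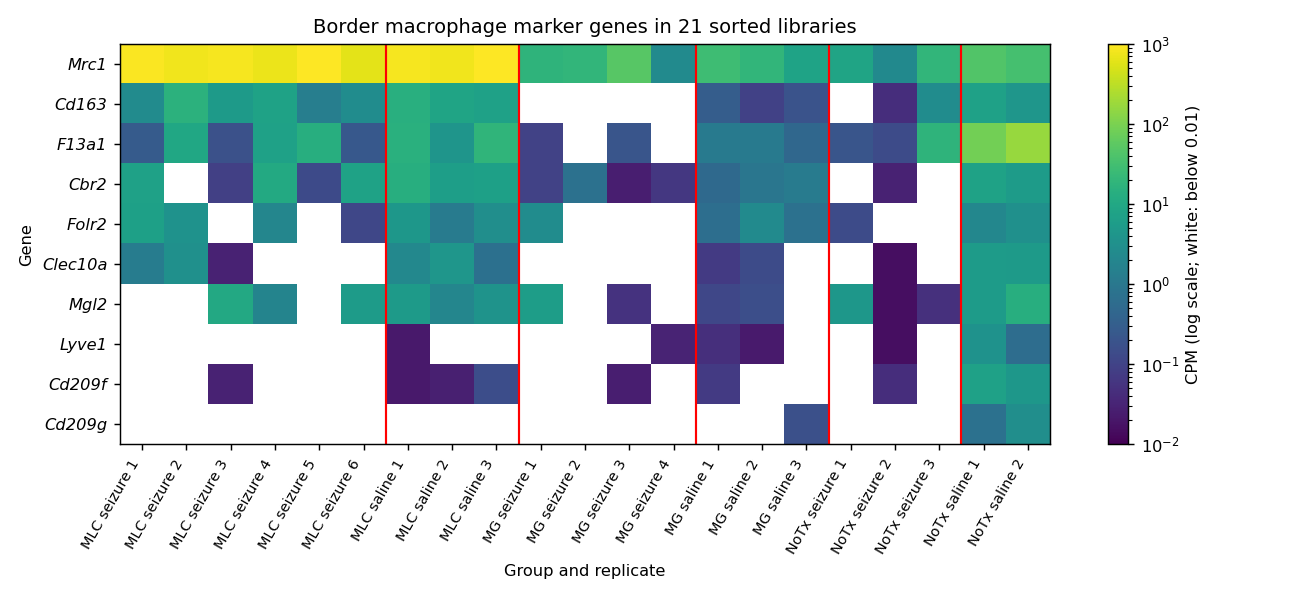
Level of the 10 marker genes (rows) in each of the 21 libraries (columns, with red lines between groups), as CPM on a log colour scale, with white below 0.01 CPM. Mrc1 is bright in all MLC libraries, and the 3 lowest rows, Lyve1, Cd209f and Cd209g, reach their high values in the NoTx saline libraries at the right, from 0.600 to 7.13 CPM.

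Mrc1 encodes the mannose receptor CD206, an endocytic receptor for sugar-bearing proteins. In MLC seizure libraries it ran from 637 CPM (lowest) through 814 CPM (median) to 1147 CPM (highest), and in MLC saline libraries it was 844, 795 and 1299 CPM. In MG it was 17.97, 19.3, 49.9 and 2.45 CPM after seizure and 27.9, 19.9 and 7.77 CPM after saline. In NoTx it was 8.43, 2.34 and 19.4 CPM after seizure and 43.5 and 33.8 CPM after saline. The lowest MLC library was thus above the highest library of any other kind. MG and NoTx libraries overlapped after seizure, whereas after saline both NoTx libraries were above all MG libraries. Group means were 842 ± 180 CPM in MLC seizure (SD, n = 6), 979 ± 278 in MLC saline (n = 3), 22.4 ± 19.9 in MG seizure (n = 4), 18.5 ± 10.1 in MG saline (n = 3), 10.1 ± 8.64 in NoTx seizure (n = 3) and 38.6 ± 6.85 in NoTx saline (n = 2).

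Mrc1 was higher in MLC than in both other kinds of cells. Against MG its log2 fold change was 5.23 (SE 0.68) after seizure, with an adjusted p of 2.1e-05 by the quasi-likelihood test of edgeR, adjusted over all 18867 genes tested. After saline it was 5.73 (SE 0.83, adjusted p = 0.00018). Against NoTx it was 6.39 (SE 0.83, adjusted p = 2.5e-05) after seizure and 4.66 (SE 0.94, adjusted p = 0.0090) after saline. The last of these rests on 2 NoTx libraries: its adjusted p was 0.15 without NoTx saline replicate 1 and 0.23 without replicate 2. Between MG and NoTx, Mrc1 had a log2 fold change of 1.17 (SE 0.66, adjusted p = 0.55) after seizure and -1.06 (SE 0.74, adjusted p = 1.00) after saline, neither past the limit of 0.05.

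Cd163 encodes the scavenger receptor for haptoglobin bound to haemoglobin. It was 2.64, 16.6, 5.29, 7.51, 1.35 and 2.65 CPM in the MLC seizure libraries and 14.2, 8.20 and 7.42 CPM in the MLC saline libraries. All 4 MG seizure libraries were at 0 counts, which allows up to 0.0344 CPM over the group, and MG saline libraries were at 0.303, 0.0912 and 0.194 CPM. NoTx libraries were at 0, 0.0456 and 2.67 CPM after seizure and at 7.30 and 4.23 CPM after saline. Cd163 was therefore above MG in every MLC library, whereas MLC and NoTx libraries overlapped after seizure, and after saline the lowest MLC library, at 7.42 CPM, was next to the highest NoTx library, at 7.30 CPM.

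The MLC seizure libraries held 463 counts of Cd163, against 0 in the MG seizure libraries, at least 160-fold higher with MG at a floor of 3 counts over the group (adjusted p = 0.0036, edgeR). That call was lost, with an adjusted p of 0.052, when the 3 libraries that showed the fewest genes when thinned to the same depth (MG seizure 3 and 4, MLC seizure 5) were left out. After saline the log2 fold change of MLC over MG was 5.64 (SE 1.77), not past the limit with an adjusted p of 0.18, though it passed in DESeq2 (0.00050), limma-voom (3.1e-05) and a fit of the compared groups alone (0.0027). Against NoTx after seizure, MLC had a log2 fold change of 2.72 (SE 1.45, adjusted p = 0.25). NoTx seizure replicate 3 decided that value: without it the fitted log2 fold change was 7.48 and passed (adjusted p = 0.030), as did the limma-voom value of 5.10 (adjusted p = 0.014). Against NoTx after saline the log2 fold change of MLC was 0.79 (SE 1.66, adjusted p = 1.00).

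**Figure D2:**
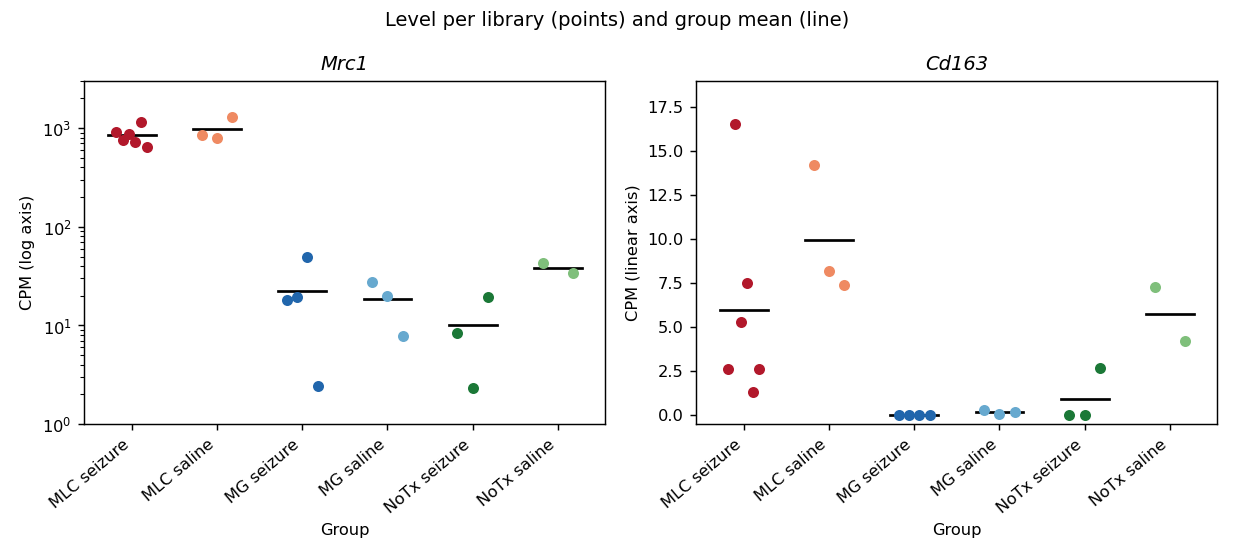
CPM of Mrc1 (left, log axis) and Cd163 (right, linear axis) in each library (points), with group means (lines). Every MLC library lies above every MG library for both genes, and for Cd163 the 2 NoTx saline libraries, at 7.30 and 4.23 CPM, lie within the range of MLC.

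F13a1 encodes the A chain of coagulation factor XIII, which cross-links fibrin and is made by monocytes, macrophages and platelets. In MLC seizure libraries it was 0.278, 9.56, 0.177, 7.25, 13.5 and 0.236 CPM, and in MLC saline libraries 14.9, 4.05 and 18.3 CPM. MG libraries were at 0.0982, 0, 0.212 and 0 CPM after seizure and at 1.12, 1.16 and 0.472 CPM after saline. NoTx libraries were at 0.207, 0.137 and 17.7 CPM after seizure and at 86.5 and 172 CPM after saline. The NoTx saline libraries were thus the highest of all, and the MLC seizure libraries split into replicates 2, 4 and 5 near the saline level and replicates 1, 3 and 6 near MG. Replicates 3 and 6, the libraries coded 11b, were low where replicates 2 and 4 of the same code were high.

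F13a1 was higher in MLC than in MG after seizure, with a log2 fold change of 5.77 (SE 1.64, adjusted p = 0.038, edgeR). The call was lost when any of 7 libraries was left out (MG seizure replicates 1 to 4, MLC seizure replicates 2, 4 and 5), with adjusted p from 0.054 to 0.088. It was also lost with no filter on low counts (0.094), with the replicate number as a block (0.0995), with limma-voom (0.11), in a fit of the compared groups alone (0.18) and without the 3 libraries of fewest genes (0.24). After saline the log2 fold change of MLC over MG was 3.75 (SE 1.65), not past the limit with an adjusted p of 0.53 (0.023 in a fit of the compared groups alone). Its lower values against NoTx after saline did not pass either, at -3.38 (SE 1.70, adjusted p = 0.66) in MLC and -7.13 (SE 1.97, adjusted p = 0.54) in MG. In the limma-voom fit with quality weights both of these passed, with adjusted p of 0.0011 and 0.00017, in a fit of the compared groups alone both did, with 0.041 and 0.0088, and in DESeq2 the MG value did, with 0.0070. After seizure MLC and NoTx did not differ past the limit, at a log2 fold change of -0.23 (SE 1.28, adjusted p = 0.97), and without NoTx seizure replicate 3 the value was 4.92 and also not called.

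Cbr2 encodes a carbonyl reductase and Folr2 the folate receptor beta of macrophages. Cbr2 was 7.23, 0, 0.0886, 11.04, 0.135 and 7.60 CPM in MLC seizure libraries and 13.4, 6.28 and 7.10 CPM in MLC saline libraries. In MG it was 0.0982, 0.748, 0.0265 and 0.0636 CPM after seizure and 0.512, 0.935 and 1.19 CPM after saline. In NoTx it was 0, 0.0304 and 0 CPM after seizure and 7.65 and 5.62 CPM after saline. MLC saline and NoTx saline libraries overlapped, and both lay above all MG libraries. MLC seizure replicates 1, 4 and 6 were close to the saline level, whereas replicates 2, 3 and 5 were not above MG.

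Over the groups, Cbr2 had 313 counts in MLC after seizure, against 2 in NoTx, a ratio of scaled levels of 186 with a 95% counting interval from 50.9 to 1539. The interval covers counting error alone and not the spread between libraries, which ran from 0 to 11.04 CPM in MLC after seizure. EdgeR called Cbr2 higher in MLC there (adjusted p = 0.034). That call was lost without any 1 of the NoTx seizure replicates 1 to 3 or of the MLC seizure replicates 1, 4 and 6, with adjusted p from 0.0501 to 0.12. It was also lost after thinning to the smallest library (0.052), with the replicate number as a block (0.12) and in a fit of the compared groups alone (0.16). Against MG the log2 fold changes of MLC were 4.33 (SE 1.59, adjusted p = 0.11) after seizure and 3.34 (SE 1.76, adjusted p = 0.71) after saline. The first passed in DESeq2 (adjusted p = 0.0037), and the second in limma-voom (0.044) and in a fit of the compared groups alone (0.016). Against NoTx after saline that of MLC was 0.43 (SE 1.81) and that of MG -2.91 (SE 1.82), each with an adjusted p of 1.00.

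Folr2 was 7.09, 3.50, 0, 1.98, 0 and 0.118 CPM in MLC seizure libraries and 4.41, 1.21 and 3.01 CPM in MLC saline libraries. In MG it was 2.65 CPM in seizure replicate 1, at 0 in the other 3 seizure libraries, and 0.652, 2.51 and 0.750 CPM after saline. In NoTx it was 0.138, 0 and 0 CPM after seizure and 2.05 and 3.25 CPM after saline. No group stood clear of the others after saline, and the log2 fold change of MLC over MG there was 1.14 (SE 2.19, adjusted p = 1.00). The deposited Folr2 count was not whole in 11 of the 14 libraries above 0, and how the reads behind those fractions were shared out is not stated.

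Clec10a and Mgl2 encode the paired galactose-type C-type lectins of mouse macrophages and dendritic cells, MGL1 and MGL2, which bind sugars ending in galactose or N-acetylgalactosamine. Both lie on chromosome 11, and their coding sequences in GENCODE (GRCm38) are alike enough that a short read may match either. Of 910 aligned coding bases 823 were identical (90.4%), and the longest identical run had 183 bases. It is shown because reads from it cannot be assigned to 1 of the genes. In Clec10a it spans exons 6 to 8 of the transcript used, at chr11:70169822-70170189, and in Mgl2 exons 7 to 9, at chr11:70136337-70136699, both on the + strand with introns left out.
Clec10a and Mgl2: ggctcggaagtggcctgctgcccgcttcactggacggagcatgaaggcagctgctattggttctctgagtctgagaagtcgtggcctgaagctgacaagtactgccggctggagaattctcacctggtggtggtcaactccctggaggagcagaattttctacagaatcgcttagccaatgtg

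In 8 libraries the deposited counts of this pair were not whole, and in 7 of the 8 their sum was whole within 0.005 counts. Clec10a was 1.25, 3.23, 0.0295, 0, 0 and 0 CPM in MLC seizure libraries and 2.19, 4.21 and 0.716 CPM in MLC saline libraries. Mgl2 was 0, 0, 10.5, 1.81, 0 and 5.60 CPM in the same MLC seizure libraries and 5.30, 1.97 and 3.65 CPM after saline. Clec10a was thus above 1 CPM in MLC seizure replicates 1 and 2 and Mgl2 in replicates 3, 4 and 6, with no MLC seizure library above 1 CPM for both. Both were above 1 CPM in MLC saline replicates 1 and 2, whereas in replicate 3 only Mgl2 was, with Clec10a at 0.716 CPM.

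In MG, Clec10a was at 0 in all 4 seizure libraries and at 0.0698, 0.137 and 0 CPM after saline. Mgl2 was 6.19, 0, 0.0531 and 0 CPM in MG after seizure and 0.116, 0.160 and 0 CPM after saline. In NoTx libraries Clec10a was 0, 0.0152 and 0 CPM after seizure and 5.67 and 5.40 CPM after saline. Mgl2 was 4.42, 0.0152 and 0.0505 CPM in NoTx after seizure and 5.62 and 13.4 CPM after saline. For both lectins MG saline libraries lay below all MLC saline and NoTx saline libraries.

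None of these differences passed. The log2 fold change of MLC over MG after saline was 5.01 (SE 2.34, adjusted p = 0.60) for Clec10a, 5.23 (SE 2.70, adjusted p = 0.69) for Mgl2 and 5.18 (SE 2.36, adjusted p = 0.57) for their summed counts. That of MG over NoTx after saline was -6.23 (SE 2.53) for Clec10a and -6.61 (SE 2.94) for Mgl2, each with an adjusted p of 1.00 (edgeR). With limma-voom these 4 single-gene values passed, with adjusted p of 0.016 and 0.035 against MG and of 0.0036 and 0.015 against NoTx, and in a fit of the compared groups alone Mgl2 passed against MG (0.0496).

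Lyve1 encodes a hyaluronan receptor of lymphatic endothelium and of the macrophages that line vessels. The 9 MLC libraries together held 1 count of it, the 7 MG libraries 4 and the 3 NoTx seizure libraries 1. It was 3.59 and 0.600 CPM in the NoTx saline libraries, from 152 and 22 counts. Over the groups MLC saline had 0.00333 times the NoTx saline level, with a 95% counting interval from 8.4e-05 to 0.0188, and NoTx seizure 0.00453 times it, from 0.000114 to 0.0256. These intervals cover counting error alone and not the spread between libraries. Lyve1 passed the filter on low counts through the NoTx saline libraries alone, so the ratios start from a difference and are no test of it. Of the 6 other markers of lymphatic endothelium in the list used here, the transcription factor Prox1 was 0.0456, 22.7 and 30.6 CPM from lowest to highest in NoTx seizure libraries, where Lyve1 had 1 count, and 9.83 and 11.96 CPM in NoTx saline libraries. In NoTx saline libraries Reln was at most 0.0472 CPM, and Flt4, Pdpn, Mmrn1 and Ccl21a were at 0 in both.

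Cd209f and Cd209g are mouse members of the DC-SIGN family of C-type lectins. Cd209f was at most 0.151 CPM in MLC, 0.0699 CPM in MG and 0.0456 CPM in NoTx seizure libraries, and 7.13 and 4.39 CPM in the NoTx saline libraries. Cd209g was 0.167 CPM in MG saline replicate 3 from 6 counts, 0.732 and 3.00 CPM in the NoTx saline libraries, and at 0 in the other 18 libraries. Cd209f had 10 counts in MLC saline, against 463 in NoTx saline, and its fitted log2 fold change was -6.34 (SE 2.05). Cd209g had 0 counts in MLC saline, against 141 in NoTx saline, at least 81.1-fold lower with MLC at a floor of 3 counts over the group. Both genes passed the filter on low counts through the NoTx saline libraries alone. No p-value is read for them here, since such a test starts from a difference.

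These genes lie near each other on chromosome 8 and are alike in sequence. Their coding sequences agreed at 519 of 582 aligned bases (89.2%), with an identical run of 178 bases, and in both libraries where their counts were not whole the sum was. Their RefSeq promoter windows, 250 bases before to 50 after the start on GRCm38.p6, agreed at 258 of 281 aligned bases (91.8%), with an identical run of 180 bases. The windows are shown because the genes were read in the same 2 libraries. Cd209f lies at chr8:4105715-4106014 on the - strand and Cd209g at chr8:4134486-4134785 on the + strand, and capitals mark the letters TATAAA, the core of a TATA box.
Cd209f: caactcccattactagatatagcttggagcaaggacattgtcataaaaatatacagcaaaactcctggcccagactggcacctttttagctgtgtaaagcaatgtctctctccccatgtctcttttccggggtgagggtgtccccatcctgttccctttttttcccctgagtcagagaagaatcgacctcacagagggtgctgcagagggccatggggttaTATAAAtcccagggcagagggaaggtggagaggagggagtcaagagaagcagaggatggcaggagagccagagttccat
Cd209g: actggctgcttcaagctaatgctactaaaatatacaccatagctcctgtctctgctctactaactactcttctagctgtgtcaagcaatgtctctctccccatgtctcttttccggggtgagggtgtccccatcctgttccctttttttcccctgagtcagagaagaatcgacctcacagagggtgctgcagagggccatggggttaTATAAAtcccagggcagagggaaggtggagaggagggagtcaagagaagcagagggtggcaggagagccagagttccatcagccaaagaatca
Searched on both strands, the letters occurred once in each of these windows and in no window of the 6 other markers with a RefSeq promoter (no promoter was matched for Lyve1 and Clec10a). Of all 32851 mouse promoter windows of this length 13.6% held them, so the match is a description and not a site.

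**Figure D3:**
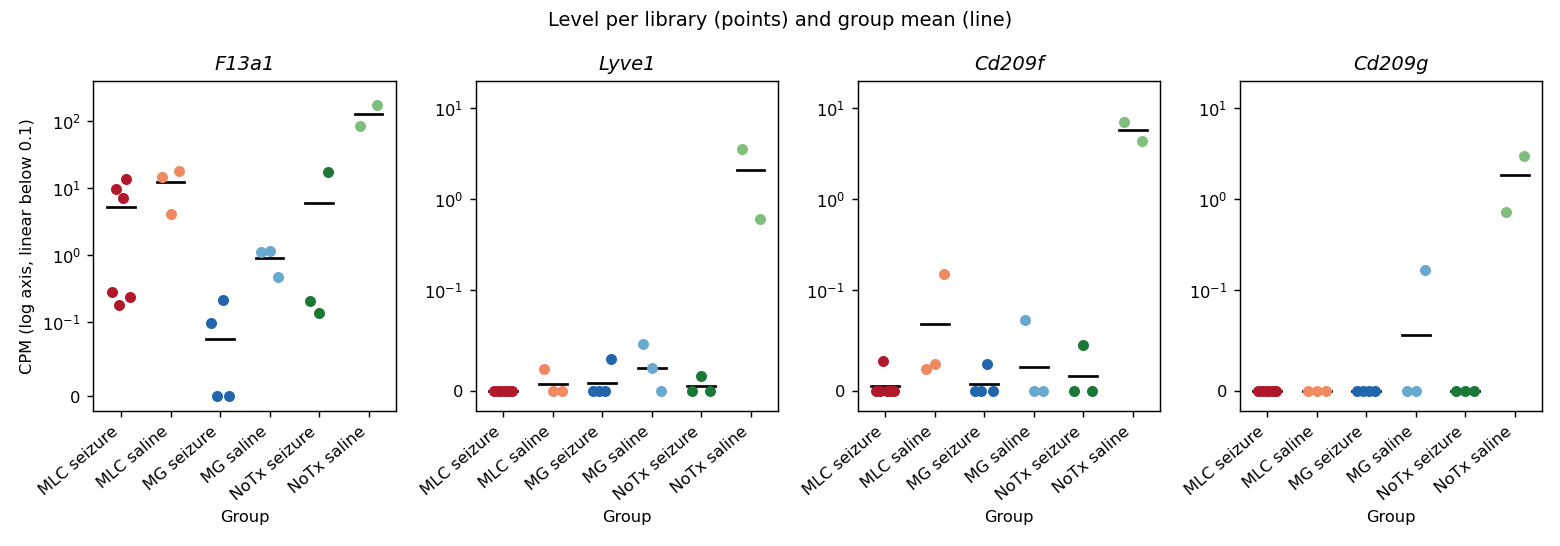
CPM of F13a1, Lyve1, Cd209f and Cd209g in each library (points), with group means (lines), on a log axis that is linear below 0.1 CPM. For all 4 genes both NoTx saline libraries lie above every other library, and NoTx seizure replicate 3, at 17.7 CPM of F13a1, lies apart from the other 2 NoTx seizure libraries.

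Lyve1, Cd209f and Cd209g passed the filter on low counts through the NoTx saline libraries alone, at a limit of 0.274 CPM, so a test of them against that group starts from a difference. Across the 21 libraries Pearson's r of log2 CPM was 0.95 between Lyve1 and Cd209f, 0.82 between Lyve1 and Cd209g and 0.89 between Cd209f and Cd209g, with the 2 NoTx saline libraries above the rest. Between Mrc1 and Cd163 it was 0.78, and between Mrc1 and Cd209g -0.19. These are descriptions over libraries that share groups and depth.

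Per length, the make-up of the marker signal differed between the kinds of cells. Of the CPM per kb of exon summed over the 10 genes, Mrc1 took 86.3% to 98.7% in the 9 MLC libraries. In the NoTx saline libraries it took 18.1% and 10.7%, and F13a1 took 34.0% and 51.7%. The mean of Mrc1 in MLC saline libraries was 154 CPM per kb, followed by Cbr2 at 6.73, Folr2 at 1.86, F13a1 at 1.84, Cd163 at 1.82, Mgl2 at 1.74 and Clec10a at 0.818 CPM per kb. In NoTx saline libraries the order of these means was F13a1 at 19.2, Mrc1 at 6.06, Cbr2 at 5.00, Mgl2 at 4.54, Cd209f at 2.90, Clec10a at 1.91, Folr2 at 1.72, Cd163 at 1.06, Lyve1 at 0.718 and Cd209g at 0.517 CPM per kb. Summed over the genes, the level was 109 to 217 CPM per kb in MLC, 0.442 to 7.93 in MG, 0.459 to 6.18 in NoTx seizure and 37.8 and 49.5 in NoTx saline libraries.

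**Figure D4:**
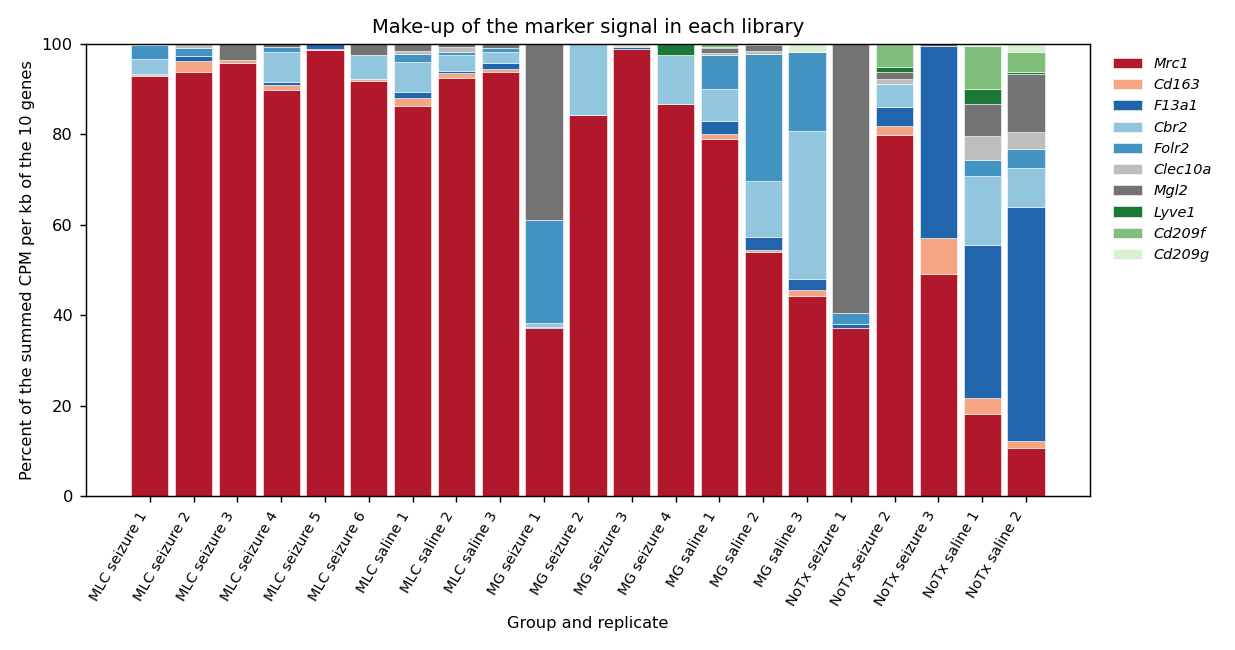
Percent of the CPM per kb summed over the 10 marker genes that each gene took, one bar per library. Mrc1 fills 86.3% to 98.7% of the bar in MLC libraries, and F13a1 takes 34.0% and 51.7% in the NoTx saline libraries.

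The number of markers at 1 CPM or more was 3 to 6 in MLC seizure libraries and 6 or 7 in MLC saline libraries. It was 1 to 3 in MG libraries and in NoTx seizure libraries, and 9 in each NoTx saline library. The NoTx saline libraries therefore held more of the list than MLC, at lower Mrc1. That number includes Lyve1, Cd209f and Cd209g. They were set apart for reaching 1 CPM in no other group, so the larger number is no separate result. The other markers were all at 1 CPM or more in both NoTx saline libraries and in MLC saline replicates 1 and 2.

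Over the whole list, edgeR called markers in MLC against MG and against NoTx, and in no other of the 12 comparisons. The list was chosen with earlier results of these data known, so the numbers called describe it and are no independent evidence. After seizure 3 of 10 were higher in MLC than in MG (Mrc1, Cd163 and F13a1) and none lower, where 2.51% of all tested genes were called higher and 5.88% in either direction. After saline 1 of 10 was higher, Mrc1, where 0.779% of all genes were called higher and 1.58% in either direction. Against NoTx, 2 of 10 were higher in MLC after seizure (Mrc1 and Cbr2; 2.55% of all genes higher and 6.16% called) and 1 of 10 after saline (Mrc1; 0.445% and 1.26%). Between MG and NoTx 0 of 10 were called after either treatment, where 0.0742% of all genes were called after seizure and 0.053% after saline.

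In MG against NoTx after saline all 10 markers had fitted values below 0, and 6 had an unadjusted p under 0.05 (Cd163, Lyve1, F13a1, Clec10a, Mgl2 and Cd209f), as had 3.4% of all genes. There limma-voom called 7 of 10, and 2.23% of all genes, and DESeq2 called 1 of 10, and 0.569% of all genes. Lyve1, Cd209f and Cd209g passed the low-count filter through NoTx saline alone, so their part in these counts is no evidence of a difference. After seizure 2 of 10 had an unadjusted p under 0.05, Cd163 and F13a1, as had 11.1% of all genes. DESeq2 called both, at lower values in MG, and 3.43% of all genes, while limma-voom called 0 of 10 and 0.127% of all genes.

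Seizure and saline libraries were compared within each kind of cells. In MLC 0 of 10 markers were called in edgeR and 0 had an unadjusted p under 0.05, where 0% of all genes were called and 11.9% had such a p. DESeq2 and limma-voom called 0 of 10 too, and 0.711% and 0.509% of all genes. Mrc1 there had a log2 fold change of -0.22 (SE 0.58, adjusted p = 0.96), a value that was 0.04 without MLC saline replicate 3. In MG 0 of 10 were called in edgeR, where 0.0371% of all genes were called, and 1 (Cd163) had an unadjusted p under 0.05, as had 11.8% of all genes. DESeq2 and limma-voom called 0 of 10 there, and 1.5% and 1.34% of all genes.

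In NoTx 0 of 10 markers were called between seizure and saline, where 0.106% of all genes were called, but 8 had an unadjusted p under 0.05, as had 7.35% of all genes, and all 10 had fitted values below 0. DESeq2 called 1 of them, Cbr2, and 1.19% of all genes. Limma-voom called 6, Lyve1, F13a1, Cbr2, Clec10a, Cd209f and Cd209g, and 0.472% of all genes. Lyve1, Cd209f and Cd209g passed the low-count filter through NoTx saline alone, so their part in these counts is no evidence of a difference. Mrc1 was 10.1 CPM on average after seizure and 38.6 CPM after saline, with a log2 fold change of -1.95 (SE 0.75, adjusted p = 0.68). F13a1 had one of -4.43 (SE 1.76, adjusted p = 0.68), and one of -7.60 in limma-voom (adjusted p = 0.040). For Cbr2 the NoTx seizure level was 0.00298 times the saline level, with a 95% counting interval from 0.00036 to 0.0108, and for Clec10a, from 1 count and 438 counts, it was 0.0018 times, from 4.5e-05 to 0.0101. These intervals cover counting error alone and not the spread between libraries.

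The difference of the treatment effect between kinds of cells was also tested. For MLC against MG, MLC against NoTx and MG against NoTx 0 of 10 markers passed in edgeR, where 0%, 0.0265% and 0.0106% of all genes were called. Unadjusted p was under 0.05 for 1, 2 and 4 markers, and for 5.49%, 8.1% and 7.13% of all genes. DESeq2 called none of the 10 in any of these, and 0.782%, 1.14% and 1.03% of all genes. Limma-voom called 0, 3 (Lyve1, Cd209f and Cd209g) and 1 (Cd209f), and 0.0424%, 0.212% and 0.143% of all genes. These 3 genes passed the low-count filter through NoTx saline alone, so their values in tests that involve that group start from a difference.

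Markers of monocytes, neutrophils, and fibroblasts and mural cells had higher levels in the NoTx saline libraries, which held most of the border list, than in MLC and MG libraries. So had dendritic cell markers without Siglech, but mostly through Cd209a, which is also among the border macrophage genes. Those of T and NK cells, platelets and red cells did not. Those of B cells and blood endothelium were above all MLC and MG saline libraries, but not above all MLC and MG seizure libraries. The 6 monocyte markers summed to 0.695 to 8.90 CPM in MLC and 0.769 to 54.3 CPM in MG libraries. They summed to 26.2, 6.05 and 123 CPM in NoTx seizure libraries and to 145 and 1031 CPM in NoTx saline libraries, with all 6 at 1 CPM or more in at least 1 of the NoTx saline libraries. The 7 neutrophil markers summed to 2.36 to 15.8 CPM in MLC and MG libraries, to 646 CPM in NoTx seizure replicate 3 and to 66.9 and 1613 CPM in NoTx saline libraries. Dendritic cell markers other than Siglech, which microglia also express, summed to at most 19.3 CPM in the other 19 libraries. In NoTx saline replicates 1 and 2 they summed to 32.6 and 50.8 CPM, of which Cd209a was 22.5 and 45.5 CPM. Fibroblast and mural cell markers summed to between 1.99 and 3.80 CPM in NoTx saline, at most 0.768 CPM in MLC and at most 0.589 CPM in MG libraries. They reached 8.20 CPM in NoTx seizure libraries. T and NK cell markers summed to at most 0.661 CPM in NoTx saline libraries, platelet markers to 8.30 and 12.6 CPM and B cell markers to 95.5 and 169 CPM. Red cell markers summed to 11.5 and 328 CPM there. Blood endothelium markers summed to between 53.6 and 53.9 CPM, at most 6.56 CPM in MLC and 4.35 to 62.4 CPM in MG. Each of these last 5 lists was within the range of MLC and MG libraries.

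Within NoTx saline the orders differed. Replicate 2 had 7.12 times the summed monocyte level of replicate 1 and 1.99 times its F13a1, and it also had the higher Cd209g (4.10 times), Mgl2 (2.38 times) and Folr2 (1.58 times), but replicate 1 had the higher Mrc1, Cd163, Lyve1, Cbr2, Clec10a and Cd209f. NoTx seizure replicate 3, with 123 CPM of monocyte markers, had 17.7 CPM of F13a1 and 2.67 CPM of Cd163 but 0 counts of Lyve1, Cbr2, Folr2, Clec10a, Cd209f and Cd209g. In MLC libraries the monocyte sums were at most 8.90 CPM while Mrc1 was at least 637 CPM. The part of these other cells in the NoTx values of F13a1, Lyve1, Cd209f and Cd209g was not tested.

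**Figure D5:**
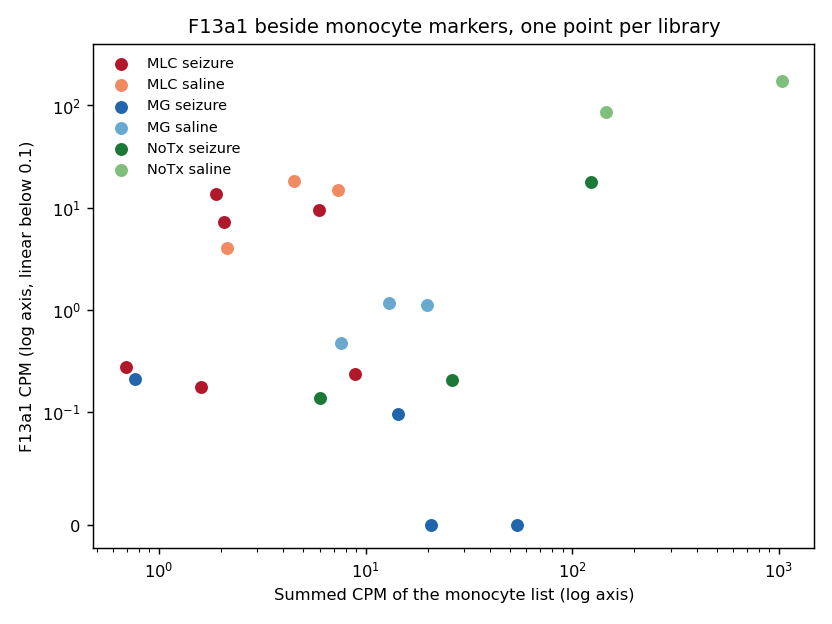
F13a1 (CPM, log axis that is linear below 0.1) against the summed CPM of 6 monocyte markers (log axis), one point per library, coloured by group. The 2 NoTx saline libraries and NoTx seizure replicate 3 lie at the upper right, and MLC libraries with up to 18.3 CPM of F13a1 lie at monocyte sums of 8.90 CPM or less.

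A further 30 genes named for border macrophages, of which 27 were tested, were set beside the 10 markers. They were chosen with earlier results of these data known, so their calls describe the list and are no independent evidence. In MLC against MG after seizure 14 were higher and 1 lower, where 2.51% of all genes were called higher and 5.88% in either direction. After saline 12 were higher and 1 lower, where these shares were 0.779% and 1.58%. The median log2 fold changes of the list were 1.57 and 1.76, where the median of all genes was 0. The largest were the inhibitory lectin Clec12a (9.93, SE 0.67), the lectin Clec4n (9.71, SE 0.83) and the NAD-degrading enzyme Cd38 (9.49, SE 0.69) after seizure, and Clec12a (9.31, SE 0.75), the membrane protein Ms4a7 (9.005, SE 0.86) and the platelet factor Pf4 (8.63, SE 0.77) after saline. Ltc4s, the leukotriene C4 synthase, was the 1 gene lower in both, at -2.27 (SE 0.29) and -1.94 (SE 0.38). Against NoTx after seizure MLC had 14 of them higher and 2 lower, where 2.55% of all genes were called higher and 6.16% in either direction. After saline 11 were higher and 1 lower, where these shares were 0.445% and 1.26%. The medians of the list were 2.10 and 2.41. Apoe, the lipid carrier, led after saline (9.16, SE 1.58) and Clec4n after seizure (9.31, SE 0.91).

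In MG against NoTx after saline 2 of the 27 were lower, Clec12a (-5.10, SE 0.65) and Pf4 (-4.19, SE 0.67), and none higher. There 0.053% of all genes were called. In NoTx after seizure against saline 3 were lower, where 0.106% of all genes were called: Cd38 (-4.94, SE 0.69), Clec4n (-4.45, SE 0.81) and Clec12a (-3.52, SE 0.61). In MG 1 was lower, again Cd38 (-4.22, SE 0.61), where 0.0371% of all genes were called, and in MLC 0 were called. For Cd38 the difference of seizure and saline was itself different between MLC and NoTx (5.06, SE 0.84), where 0.0265% of all genes were called. All genes named here passed at an adjusted p under 0.05 in edgeR. Within that list the lectin Cd209a was 7.49 CPM in NoTx seizure replicate 2, 22.5 and 45.5 CPM in the NoTx saline libraries and at most 0.177 CPM in the other 18 libraries.

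The genes whose log2 CPM followed a marker most closely over the 21 libraries were, for Mrc1, the inhibitory receptor Lilrb4a (Pearson's r = 0.96), the proton-sensing receptor Gpr65 (0.95) and the acyloxyacyl hydrolase Aoah (0.95). Lilrb4a was 692 ± 179 CPM in MLC seizure (SD, n = 6), 1050 ± 239 in MLC saline (n = 3), 9.87 ± 7.03 in MG seizure (n = 4) and 28.5 ± 0.801 in NoTx saline (n = 2). For Cd163 they were Rab7b (0.91), Ms4a4a (0.89) and Rgs18 (0.89). For the other 8 markers the best r was between 0.55 and 0.73.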

How the data were processed

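RNA-seq libraries of cells sorted from brain (21 in all) were made with a low-input kit, per the labels' protocols. The authors deposited estimated counts per gene, of which 28.2% to 45.4% of the values above 0 in a library were not whole. Per the submitters' processing notes, Trim Galore 0.6.7, STAR 2.7.10a, featureCounts and the mouse genome GRCm39 were used. The annotation and the source of the fractions are not given in the sources used here.

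Counts were rounded and scaled by TMM, and 18867 genes that passed edgeR's filter by group were tested. All libraries entered 1 quasi-likelihood fit with 6 group means, in edgeR 4.0.16 (limma 3.58.1, DESeq2 1.42.0 and R 4.3.3). The 12 comparisons were adjusted by Benjamini and Hochberg over all genes, with a limit of 0.05. SE is the log2 fold change over the square root of F. CPM are TMM-scaled, and lengths and coding sequences are from GENCODE on GRCm38. Ratios of summed counts have 95% intervals for counting error alone. Reads carried no stated molecular identifiers. The pipeline was tested on simulated data, for MLC against MG after saline. Genes given a fold of 4 were recovered in 12.1% of cases (n = 58). Recovery rose to 34.7% where the fold was 8 (n = 72) and to 57.1% where it was 16 (n = 70). There were 72 true calls and 2 false calls. Most changes of 8-fold or less were thus missed there, so a marker not called is no evidence of equal levels.

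The 10 markers and the marker lists of other cells were chosen with earlier results of these data known. All 10 markers are named. Of other lists, up to 3 called genes per direction could be named if their mean log2 CPM was 2 or more, and the 3 genes most like each marker. Alternatives were RLE scaling, no filter, DESeq2, limma-voom, a fit of the compared groups alone, a block for the replicate number, thinning to the smallest library, the 11b libraries left out or summed, and each library left out. Leaving out the 3 libraries that showed the fewest genes when thinned to the same depth and summing look-alike pairs were added after the data had been seen.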

Additional observations from a re-analysis of the deposited data

Results flagged for a closer look

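In MG after seizure, replicate 1 stood far above the 3 other libraries for 2 markers. Folr2 was 2.65 CPM there and 0 in the others. Mgl2 was 6.19 CPM there and at most 0.0531 CPM in the others. The gap rule used flags about 1 of 20 groups of 4 if values follow a normal distribution. Here most values were at or near 0, so that rate does not hold and no conclusion is drawn from the gaps. In all 10 groups of values were looked at, those of MLC (6 libraries each) and MG (4 each) after seizure in which a marker reached 1 CPM.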

How the results depend on the processing

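Mrc1 stayed higher in MLC, past the limit, under each alternative run against MG after both treatments and against NoTx after seizure. With no filter on low counts, 0 markers were called in MLC against NoTx after saline, and the adjusted p of Mrc1 there was 0.070. With DESeq2 the number of markers called was 2 in MLC against MG after saline, 5 after seizure, 4 in MLC against NoTx after seizure, 1 in MG against NoTx after saline, 2 after seizure and 1 in NoTx between seizure and saline. With limma-voom it was 5 in MLC against MG after saline, 5 in MLC against NoTx after saline (1 higher and 4 lower), 7 in MG against NoTx after saline, 6 in NoTx between seizure and saline, and 3 and 1 for the difference of treatment effects of MLC and of MG against NoTx. With only the groups compared it was 5 in MLC against MG after saline, 3 in MLC against NoTx after saline (1 higher and 2 lower), 1 after seizure and 1 in MG against NoTx after saline. The methods differ in how many genes they call. In MG against NoTx after saline DESeq2 called 0.569% of all genes and limma-voom 2.23%, where edgeR called 0.053%. Such shares are not given here for the MLC comparisons, so these numbers show dependence on the method and are not read as results about the markers. Thinning to the smallest library left 1 in MLC against NoTx after seizure, and leaving out the 3 libraries that showed the fewest genes when thinned to the same depth left 1 in MLC against MG after seizure. In MLC against MG after seizure 2 markers were called, Mrc1 and Cd163, with no filter, with limma-voom, with only the groups compared and with the replicate number as a block.

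Same-numbered libraries had correlations of their deviations from -0.064 to 0.134, and differently numbered ones from -0.182 to 0.182. Such values cannot exclude that samples were paired. The replicate number did not follow the codes in the library names in all groups, and a pairing by those codes was not tested. With the replicate number as a block 1 marker was called in MLC against NoTx after seizure, Mrc1 after seizure against saline in MLC was 0.23 on the log2 scale, and F13a1 in MLC against NoTx after seizure was 0.77. That F13a1 value was 1.36 with limma-voom, 0.35 without the 11b libraries, and from -0.81 to 4.92 with 1 library left out, and it was not called in any of them. With 1 library left out the number of markers called ran from 2 to 3 in MLC against MG and from 1 to 2 in MLC against NoTx after seizure, from 0 to 1 in MLC against NoTx after saline, and was 1 in MLC against MG after saline and 0 elsewhere. Mrc1 after seizure against saline in MLC ran from -0.35 to 0.039. The cause of these changes was not tested. Depth limits the low markers: 3 counts are 0.417 CPM in the smallest library. Counts of calls against NoTx saline that include Lyve1, Cd209f or Cd209g start from a difference, as these passed the low-count filter through it alone.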
